A study of Coptotermes formosanus x Coptotermes gestroi and Coptotermes formosanus and Coptotermes gestroi with 67 samples.

Results

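Heads and bodies of termite workers were compared just after a molt. The workers belonged to Coptotermes formosanus, Coptotermes gestroi, and 2 hybrids of these species that the labels name Hybrid F and Hybrid G. The head was set against the body of the same cross, the body being thorax plus abdomen after the gut had been taken out, so that gut tissue is missing from the bodies. The samples were taken by their labels, as all post-molt heads and all post-molt bodies, which gave 24 of the 67 samples of the series (12 heads and 12 bodies). The labels name no treatment, colony, sex or age, and do not say which species was the mother of which hybrid. Inter-molt workers (between molts, 20 samples) and pre-molt workers (before the molt, 23 samples) of the same 4 crosses served only to ask where the head to body difference was another one at those stages.

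The 3 post-molt samples that the labels list for each cross and tissue had identical values in all 15950 genes, so each group was counted as 1 profile, 8 of the 24 profiles of the series. The p-values below therefore measure how a head to body difference recurs over 4 crosses. How much workers or colonies vary within a cross cannot be seen in these data.

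Insects grow by laying down a new cuticle under the old one and shedding the old one, and after the shedding the new cuticle expands, hardens and darkens. Ecdysteroid hormones start each round, and neuropeptides released around the shedding drive the movements and the tanning that follow. The head of a worker holds the brain, the antennae and the mouthparts with their large muscles. The thorax and abdomen hold legs, fat body, salivary and reproductive glands, tracheae and most of the epidermis that secretes cuticle. Since whole heads and bodies were sequenced, fewer cells of a type and less RNA per cell cannot be told apart.

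The post-molt profiles held 28645469 to 35729884 expected counts each, with a count in 13800 to 14469 genes. Counting error alone allows up to 3 counts where the table has none, which is 0.0840 to 0.105 CPM (counts scaled to the total of a profile) in these profiles. The 10 highest genes held 18.4% to 23.0% of all counts in heads, against 12.6% to 14.9% in bodies. Genes are given by the IDs of the deposited table (Cfor for 12000 genes, BGI_novel for 3949), since no source used here pairs them with names. The markers of nerve, eye, muscle and fat body, and the cuticle and molting hormone genes, could therefore be matched to no ID, and the tissue labels could not be checked against them. For the same reason no function is given for any gene, and no sequence.

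After the molt, 4811 of 12731 tested genes (37.8%) differed between head and body in expression. Of these, 2334 (18.3% of the tested genes) were higher in heads and 2477 (19.5%) lower (edgeR quasi-likelihood test with the cross as a block, Benjamini-Hochberg adjusted p under 0.05). The numbers of genes in each direction were close, but the sizes were not. At 4-fold or more, 260 genes were higher in heads (2.04%) and 814 lower (6.39%). At 16-fold or more it was 53 genes (0.416%) and 362 (2.84%), and at 256-fold or more 9 and 125 genes. Most of the genes higher in heads differed by less than 2-fold (1368 of 2334), as did 1108 of the 2477 genes lower in heads. In 1649 genes (13.0% of those tested) all 4 heads lay above all 4 bodies, and in 1705 (13.4%) all 4 heads lay below.

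The split between the directions depended on the scaling. With totals alone in place of TMM factors, 1662 genes were called higher and 3170 lower, so that 34.4% of the calls were higher in heads, against 48.5% with TMM. The median log2 fold change of all tested genes was -0.11 with totals alone and 0.02 with TMM. The number of calls was lower with no pairing by cross (2786) and with any 1 pair left out. It was 4189, 4406, 2890 and 3483 without the pair of C. formosanus, C. gestroi, Hybrid F or Hybrid G. Fits with a pair left out have fewer residual degrees of freedom, and the part of this in the loss of calls was not tested.

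**Figure D1:**
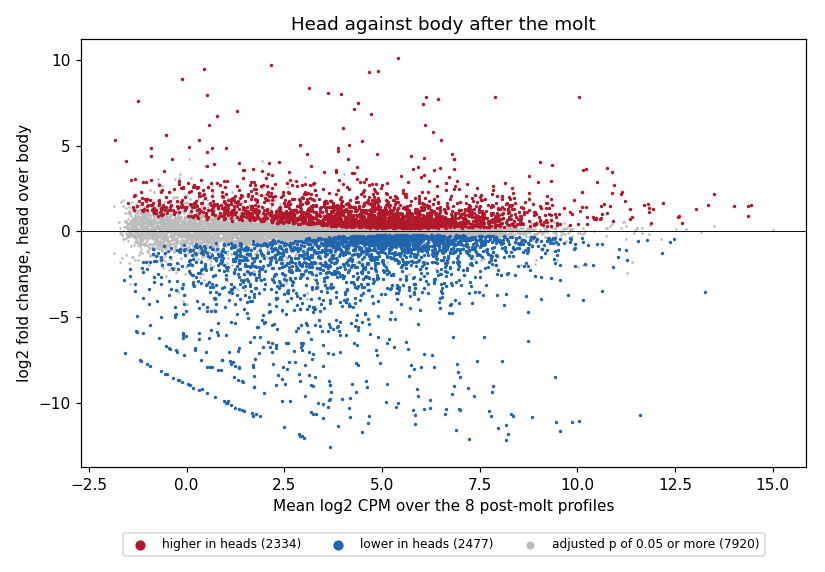
Each point is 1 of 12731 genes, placed by its mean log2 CPM over the 8 post-molt profiles and its log2 fold change of head over body. The 2334 genes called higher in heads are red, the 2477 called lower are blue, and the rest grey. The blue points reach far below -5 over the whole range of levels, and few red points lie above 5.

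The genes of the larger differences were shorter in the table than the average gene. Their median length was 1618 bases for genes at least 16-fold higher in heads and 2002.5 bases for genes at least 16-fold lower, against 3019 bases for all tested genes. The BGI_novel IDs made up 17 of the 53 genes at least 16-fold higher (32.1%) and 142 of the 362 at least 16-fold lower (39.2%), against 26.0% of all tested genes. Over all calls the picture was another one. Genes higher in heads had a median length of 3953.5 bases and genes lower in heads 2780 bases, with 16.9% and 20.7% BGI_novel IDs.

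A minority of the genes at least 16-fold apart had a high level in the higher tissue. Of the 53 genes at least 16-fold higher in heads, 14 reached a mean of 100 CPM there, and of the 362 at least 16-fold lower, 66 reached it in bodies. The share of all tested genes at that level was not counted, and a gene 16-fold apart need not be near absent from the lower tissue. No gene met the criterion for restriction to the head (at least 10 CPM in all 4 heads, at most 3 counts in each body). For the body 19 genes met it. The 3 highest of these were Cfor_02538 (5 counts in all heads together, 118 ± 106 CPM in bodies, SD over 4 crosses), Cfor_04394 (3 counts in heads, 52.1 ± 27.1 CPM in bodies) and Cfor_08552 (2 counts in heads, 51.7 ± 38.9 CPM in bodies). For Cfor_02538 the heads had 0, 0.118, 0.0644 and 0 CPM in C. formosanus, C. gestroi, then Hybrid F and Hybrid G, against 66.2, 277, 60.3 and 68.5 CPM in the bodies. All 4 heads lay at or near the counting limit, and the C. gestroi body stood above the other bodies. From pooled counts the body to head ratio of Cfor_02538 was 2875 (95% counting interval 1232 to 8854). The intervals given here cover counting error only.

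Cfor_12033 had the largest difference among the genes higher in heads with a mean of at least 3 on the log2 CPM scale. Its level was 81.2, 113, 65.3 and 94.2 CPM in heads of C. formosanus, C. gestroi, then Hybrid F and Hybrid G, against 0.151, 0, 0.0274 and 0.117 CPM in bodies. The 2 tissues did not come near each other in any cross. The mean was 88.3 ± 20.02 CPM in heads and 0.0739 ± 0.0718 CPM in bodies (SD, n = 4 crosses), with 10 counts in all bodies together, and the log2 fold change was 10.08 ± 0.36 (SE, edgeR adjusted p = 9.54e-05). As so few counts stood in the bodies, the pooled ratio of 1045 has a counting interval of 568 to 2179. The ID next to it, Cfor_12034, followed the same pattern, with 53.5 ± 13.4 CPM in heads and 0.0832 ± 0.0771 CPM in bodies and a log2 fold change of 9.28 ± 0.33 (adjusted p = 9.54e-05, edgeR). The ID before both, Cfor_12032, was low but also nearly confined to heads, with 2.86 ± 1.70 CPM in heads and 0.00686 ± 0.0137 CPM in bodies (log2 fold change 7.93, edgeR adjusted p = 0.000633).

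BGI_novel_G003717 reached 40.7, 78.5, 64.7 and 66.4 CPM in the heads of the 4 crosses in the same order, against 0.0908, 0.0353, 0.0549 and 0.175 CPM in the bodies, with a log2 fold change of 9.34 ± 0.27 (adjusted p = 6.76e-05, edgeR). Its heads and bodies were separated in every cross, with 12 counts in all bodies. BGI_novel_G002420, Cfor_08986 and Cfor_05425 were 18.3 ± 3.69, 25.5 ± 5.43 and 32.1 ± 11.6 CPM in heads and between 0.0540 and 0.117 CPM in bodies on average. Their log2 fold changes were 8.36, 8.05 and 8.01.

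The gene with the highest level in this group was Cfor_09254. Heads had 1742, 2605, 2043 and 2478 CPM and bodies 9.84, 8.96, 7.65 and 11.98 CPM in C. formosanus, C. gestroi, then Hybrid F and Hybrid G. Per kilobase it ranked 34th of all genes in heads and 4753rd in bodies. Its log2 fold change of 7.84 ± 0.19 (edgeR adjusted p = 5.49e-05) had a small error for its size, and it rests on 1268 body counts, so the depth does not limit it. BGI_novel_G003323 averaged 495 ± 56.6 CPM in heads and 2.52 ± 1.97 CPM in bodies (log2 fold change 7.80 ± 0.50, edgeR adjusted p = 0.000354). Its bodies ranged from 0.817 CPM in C. formosanus to 5.32 CPM in Hybrid G, so that most of its variation over the crosses lay in the lower tissue. Cfor_10313, Cfor_10175, Cfor_07651 and Cfor_07815 completed the 12 leading genes higher in heads, with means of 43.8 to 179 CPM in heads, 0.251 to 0.978 CPM in bodies and log2 fold changes of 7.40 to 7.81.

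Among the genes lower in heads, BGI_novel_G002214 had no count in any head, against 13.2, 55.9, 15.6 and 19.6 CPM in the bodies of C. formosanus, C. gestroi, then Hybrid F and Hybrid G. The table holds NA, read here as no count, for 3 of these 4 heads. Set against a floor of 3 counts over all heads it was at least 1071-fold lower in heads (edgeR adjusted p = 0.00175). BGI_novel_G001036 likewise had no head count, against a mean of 16.5 ± 8.51 CPM in bodies, and was at least 744-fold lower in heads (edgeR adjusted p = 0.00252).

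At higher levels, BGI_novel_G001416 had 0, 0.316, 0.161 and 0.0704 CPM in heads, against 657, 751, 390 and 580 CPM in bodies. All bodies lay far above all heads. The log2 fold change was -12.15 ± 0.48 (edgeR adjusted p = 0.000113), and the pooled ratio of body to head was 5064 (interval 3070 to 9048). Cfor_06473 (0.0744 ± 0.0870 CPM in heads, 311 ± 87.7 CPM in bodies) and Cfor_02567 (0.185 ± 0.184 CPM in heads, 621 ± 207 CPM in bodies) were lower in heads by log2 fold changes of -12.08 ± 0.33 and -11.83 ± 0.39 (adjusted p = 6.17e-05 and 8.18e-05, edgeR). Cfor_02567 spans 411 bases in the table and ranked 44th per kilobase in bodies and 11583rd in heads.

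BGI_novel_G002923 was the highest of the 12 leading genes lower in heads. It had 0.0592, 1.82, 0.419 and 0.106 CPM in heads, against 996, 3543, 834 and 793 CPM in bodies, with the C. gestroi profile highest in both tissues. Its log2 fold change was -11.62 ± 0.49 (edgeR adjusted p = 0.000129), and it ranked 22nd per kilobase in bodies. BGI_novel_G001358, BGI_novel_G001366 and BGI_novel_G001368, whose numbers lie close together, also had C. gestroi highest in bodies, and each of them had C. formosanus lowest there. BGI_novel_G001358 had 0, 0.790, 0 and 0.0352 CPM in heads of C. formosanus, C. gestroi, then Hybrid F and Hybrid G, against 4.66, 1561, 205 and 278 CPM in bodies. Its bodies thus differed widely between the species after the molt. In C. formosanus the log2 difference of head and body was -6.12, against -11.56 to -10.83 in the other crosses. The C. formosanus and Hybrid F heads had 0 CPM and the Hybrid G head 0.0352 CPM. The values of these crosses depend on the prior count of 2 and on the body level, which was low in C. formosanus. They are not measured ratios. Between molts the C. formosanus body was the highest for BGI_novel_G001366 (566 CPM, against 17.2 CPM in C. gestroi) and BGI_novel_G001368 (86.8 against 19.8 CPM). For BGI_novel_G001358 it had 0 CPM, against 136 CPM in C. gestroi. Cfor_02785, Cfor_10653 and Cfor_02538 were the other leading genes lower in heads after the molt, with log2 fold changes of -11.58, -11.32 and -11.25. Cfor_10653 and BGI_novel_G001368 each had 1 count in all heads together, so that their pooled ratios of 4073 and 5552 reach down to 731 and 996 at the lower end of the counting interval.

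**Figure D2:**
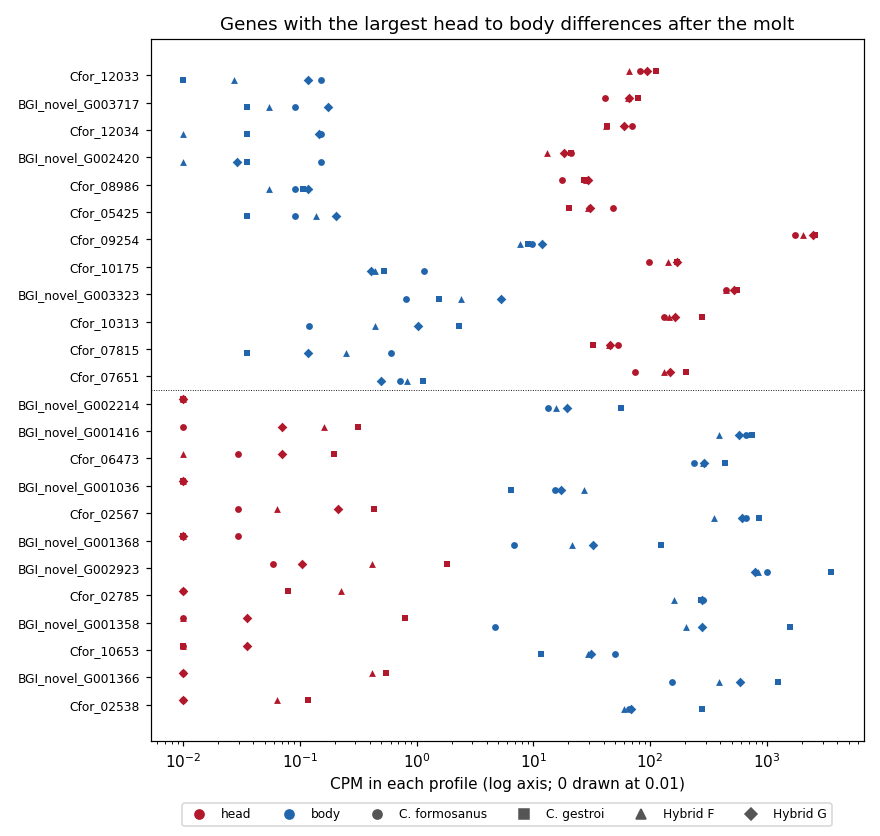
Levels in CPM on a log axis of the 12 genes with the largest difference in each direction, in the 4 heads (red) and 4 bodies (blue) after the molt, with 1 marker shape per cross and 0 drawn at 0.01. Heads and bodies do not overlap in any of the 24 genes, as the choice by largest difference favours. The spread between crosses is wider in bodies for genes such as BGI_novel_G001358, which lies at 4.66 CPM in C. formosanus and 1561 CPM in C. gestroi.

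The genes with the highest levels in each tissue differed far less. BGI_novel_G002829 had the highest mean CPM over the crosses in both, though it was the highest gene of a single profile only in the head of C. gestroi and in the bodies of the crosses other than Hybrid G. It had 29964, 45673, 32901 and 33276 CPM in heads and 40096, 42277, 31261 and 21832 CPM in bodies of C. formosanus, C. gestroi, then Hybrid F and Hybrid G. The tissues overlapped, and the log2 fold change was 0.08 ± 0.19 (edgeR adjusted p = 0.77). Cfor_02429 averaged 34716 ± 4490 CPM in heads and 12044 ± 1474 CPM in bodies, with no overlap and a log2 fold change of 1.51 ± 0.12 (adjusted p = 0.000601, edgeR). Per kilobase it was the highest gene in heads and the 4th in bodies. Cfor_06437 averaged 32356 ± 2253 CPM in heads and 11590 ± 2067 CPM in bodies, with a log2 fold change of 1.48 ± 0.12 (adjusted p = 0.000599, edgeR). With all 24 profiles in the fit the edgeR adjusted p of Cfor_06437 was 0.0616, above the threshold and the highest of its 12 alternatives, the lowest, by DESeq2, being 4.07e-65.

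BGI_novel_G001907 averaged 28696 ± 6032 CPM in heads and 15335 ± 4200 CPM in bodies, 0.91 ± 0.27 in log2 fold change (edgeR adjusted p = 0.0486). Its difference by cross was 0.19 for C. formosanus and 0.76 for C. gestroi, and then 0.9995 for Hybrid F and 1.74 for Hybrid G, on the log2 scale. This call was close to the threshold, and 8 of 12 alternatives made it, with adjusted p between 0.00152 and 0.469. Cfor_01998 had the opposite direction, with 668, 2365, 2104 and 1602 CPM in heads and 11236, 10139, 28865 and 25549 CPM in bodies. Both hybrid bodies lay above both parental bodies, and the log2 fold change was -3.52 ± 0.40 (edgeR adjusted p = 0.00202).

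Seen as shares of all counts, the genes at least 4-fold higher in heads held 6.11%, 7.65%, 6.88% and 6.42% of the counts in heads of C. formosanus, C. gestroi, then Hybrid F and Hybrid G, against 1.10% to 1.34% in bodies. The genes at least 4-fold lower in heads held 0.694% to 0.843% of the head counts, against 8.11%, 11.2%, 10.3% and 11.1% of the body counts. The genes were chosen by these differences, so the shares describe their weight and test nothing. The genes at least 16-fold lower held 2.75%, 6.66%, 2.58% and 3.38% of the body counts, the highest share being that of C. gestroi. A single gene, BGI_novel_G001373, singled out after its values were seen, held 1.66% of the C. gestroi body counts, against 0.189% to 0.396% in the other bodies. It had 1.24, 10.1, 2.83 and 1.30 CPM in heads and 2024, 16743, 3001 and 3746 CPM in bodies (log2 fold change -10.71, edgeR adjusted p = 6.92e-05).

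**Figure D3:**
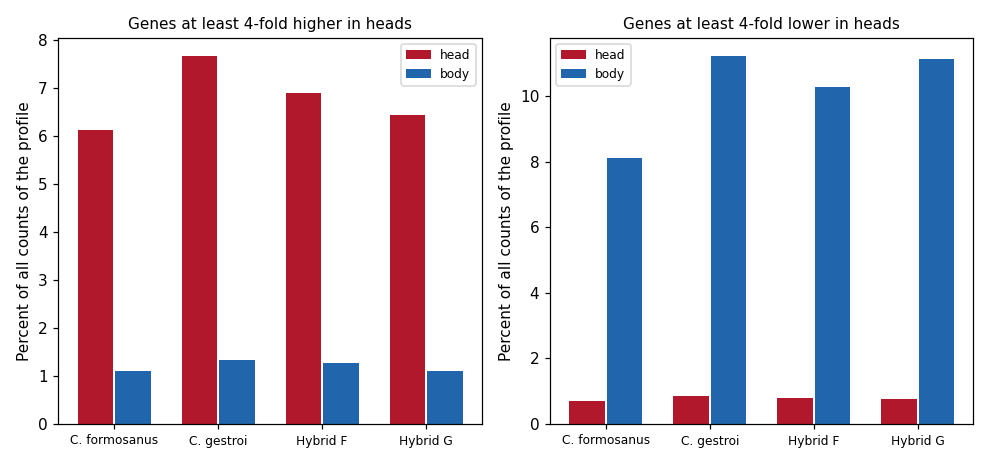
Bars give the percent of all counts of a post-molt profile held by the 260 genes at least 4-fold higher in heads (left) and by the 814 at least 4-fold lower (right), for heads (red) and bodies (blue) of each cross, with axes from 0. On the right, C. formosanus has the lowest body share at 8.11%.

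The tissue difference recurred over the 4 crosses. As the choice by the test favours, of the 2334 genes higher in heads, 2304 were higher in the head of all 4 crosses, and of the 2477 lower, 2421 were lower in all 4. The difference within a cross went against the call for 31 genes in workers of C. formosanus and 49 of C. gestroi, and for 0 and 6 genes in those of Hybrid F and Hybrid G. Across the 12731 genes, which are not independent replicates, the log2 differences of 2 crosses correlated with Pearson's r of 0.75 between the species and 0.88 between the hybrids, and of 0.79 to 0.82 between a hybrid and a species. Without a test, the number of genes at least 4-fold higher in the head of a cross was 498 (3.91%) for C. formosanus and 374 (2.94%) for C. gestroi, then 304 (2.39%) for Hybrid F and 341 (2.68%) for Hybrid G. At least 4-fold lower were 945 (7.42%), 844 (6.63%), 959 (7.53%) and 972 (7.63%) genes. In all 4 crosses at once, 128 genes exceeded 4-fold towards the head and 543 towards the body, and 79 genes were at least 4-fold higher in the head of 1 cross and at least 4-fold lower in that of another.

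The study's hybrids allow the question whether the head to body difference is another one in hybrids than in the parental species. No gene passed that test (0 of 12731, 0%, edgeR, tissue by hybrid status, 2 residual degrees of freedom), with 964 genes at an unadjusted p under 0.05 and a smallest adjusted p of 0.647. DESeq2 called 118. The 4 genes with the smallest p in that test are given as values only. BGI_novel_G002135 had a head minus body difference of -0.31 and -0.68 in Hybrid F and Hybrid G, against -2.27 and -2.23 in C. formosanus and C. gestroi on the log2 scale. For Cfor_02879 these differences were -2.96 and -3.10 in the hybrids, against -0.78 and -1.15 in the species. Cfor_11919 was lower in the heads of both hybrids (-1.55 and -1.84) and showed 0.25 and 0.71 in the species. Cfor_03084 was lower in heads throughout, at -3.20 and -3.28 in the hybrids, against -2.03 and -1.92 in the species. In all 4 genes the hybrids and the species did not overlap, as the choice by smallest p favours.

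The other stages showed fewer differences. Between molts 3174 of 12399 genes (25.6%) differed between head and body, with 1509 higher in heads (12.2%) and 1665 lower (13.4%), in the same kind of fit. Before the molt 2485 of 12601 genes (19.7%) differed, with 1082 higher in heads (8.59%) and 1403 lower (11.1%). Of the 2334 genes higher in heads after the molt, 1006 (43.1%) were called the same way between molts and 846 (36.2%) before the molt, and 40 and 19 the other way. These make up 66.7% of the genes higher in heads between molts and 78.2% of those before the molt. Of the 2477 genes lower in heads after the molt, 1208 (48.8%) were also called lower between molts and 1060 (42.8%) before the molt, and 33 and 15 the other way. They are 72.6% and 75.6% of the lists of those stages. At all 3 stages, 531 genes were called higher in heads and 653 lower. The inter-molt bodies of both species have 1 sample each and are shallow (10080438 counts in C. formosanus, against 35404144 in its post-molt body). A call at 1 stage and none at another is not in itself a difference between stages.

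Some genes kept a very large difference throughout. By the smallest of the 3 stage means, BGI_novel_G003717 led the genes higher in heads, with mean log2 differences of 8.88 between molts, 5.88 before and 8.68 after the molt. Its heads averaged 222 ± 60.5, 23.8 ± 6.91 and 62.6 ± 15.8 CPM at the 3 stages, and no body exceeded 0.848 CPM at any stage. Its size was not constant, as the head to body difference after the molt exceeded that before the molt by 3.26 ± 0.75 (edgeR adjusted p = 0.0438). That call was close to the threshold, and with any 1 of the 12 pairs left out the adjusted p lay between 0.0339 and 0.135 and passed in 1 case only, without the pre-molt pair of C. formosanus. The other 5 genes described next had no such call (edgeR adjusted p between 0.151 and 0.967). Cfor_08986 and Cfor_00319 behaved alike, with mean log2 differences of 8.03, 5.48 and 7.31, and of 8.73, 5.30 and 6.96. On the side of the body, Cfor_09069 had -11.86, -7.73 and -10.74, Cfor_06717 had -7.55, -7.70 and -9.24, and Cfor_06718, the next ID, had -9.85, -7.35 and -10.08. After the molt Cfor_09069 ranged from 0 CPM in C. formosanus to 1.30 CPM in C. gestroi among heads, and from 277 CPM in Hybrid F to 1573 CPM in C. gestroi among bodies.

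Genes chosen by a large difference between molts showed a smaller one before the molt than after it. The 306 genes at least 16-fold lower in heads between molts, a list that uses no post-molt or pre-molt value, had a median of the mean log2 differences of -6.20 between molts, -2.81 before the molt and -5.50 after it. Over all genes tested after the molt the medians were 0.08, 0.01 and 0.03. In heads those 306 genes held 0.0396% to 0.0443% of the counts between molts, 0.265% to 0.409% before and 0.0663% to 0.166% after the molt. In bodies they held 2.57% to 21.4%, 1.75% to 3.06% and 2.21% to 5.61%. Of those 306 genes 47 to 59 had over 1 CPM in heads between molts, 44 to 50 before and 40 to 47 after the molt. In bodies 267 to 304 of them had over 1 CPM between molts, 114 to 242 before and 265 to 275 after the molt. The lowest of these numbers were those of the pre-molt bodies of Hybrid F and Hybrid G, 115 and 114. The 59 genes at least 16-fold higher in heads between molts had medians of 5.44, 2.38 and 3.38. The part of these shares in the differences between stages was not tested.

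**Figure D4:**
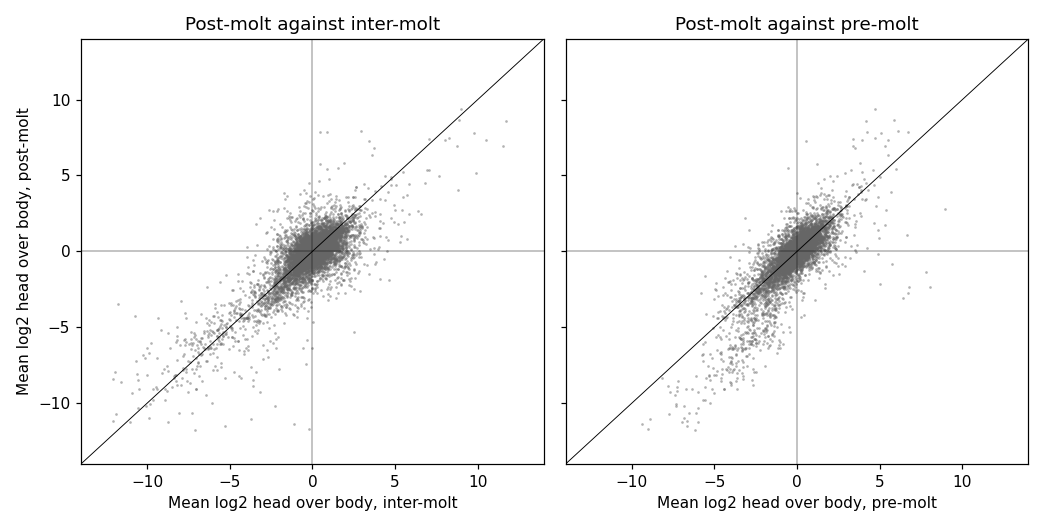
Each point is a gene, placed by its mean log2 difference of head over body (4 crosses) after the molt on the vertical axis and between molts (left) or before the molt (right) on the horizontal axis, with the line of equality. On the right, many genes with post-molt values below -5 lie below the line, as their pre-molt differences are smaller.

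Whether a difference after the molt was another one than at a further stage was tested as an interaction over all 24 profiles, with 12 head and body pairs as blocks. Both comparisons share the post-molt profiles, so their lists are not independent. Against inter-molt, 847 of 13534 genes (6.26%) had another head to body difference after the molt, 430 (3.18%) shifted towards the head and 417 (3.08%) towards the body. Against pre-molt, 388 genes (2.87%) did, 270 (1.99%) towards the head and 118 (0.872%) towards the body. At an unadjusted p under 0.05 the counts were 3048 and 1931. Scaling by totals alone moved the medians of all tested genes to -0.30 and -0.34, against -0.04 and 0.01 with TMM, and gave 302 genes towards the head and 2432 towards the body against inter-molt, and 148 and 1397 against pre-molt. The excess of shifts towards the head against pre-molt therefore turned round with that scaling.

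Between molts Hybrid G lay closer to the pre-molt and to the post-molt profiles than the other crosses did, in its head as in its body. It was not far from its own stage by the same measure. With the other inter-molt heads its head had a mean r of 0.935, against 0.898 to 0.937 for the other crosses. For its body this was 0.879, against 0.838 to 0.908. The log2 CPM of its head correlated with the pre-molt heads with a mean r of 0.83, against 0.77 to 0.81 for the other inter-molt heads. In that head BGI_novel_G001907 and Cfor_06437 had 15816 and 6309 CPM, against at most 5.67 and 12.1 CPM in the other inter-molt heads. The pre-molt heads had 2656 to 6374 CPM of BGI_novel_G001907 and 1872 to 6917 CPM of Cfor_06437. The post-molt heads had 21761 to 35427 and 29683 to 34694 CPM. The log2 CPM of the inter-molt Hybrid G body correlated with the pre-molt bodies with a mean r of 0.85, across 13534 genes. For the other inter-molt bodies this was 0.73 to 0.77. With the post-molt heads the inter-molt Hybrid G head had a mean r of 0.895, against 0.832 to 0.870 for the other inter-molt heads. With the post-molt bodies its body had 0.882, against 0.817 to 0.861. That body thus correlated no less with the post-molt bodies than with those of its own stage. Without the inter-molt pair of Hybrid G, 1120 genes were called against inter-molt. The counts fell with certain other pairs left out, in fits of fewer profiles. Against inter-molt they were 462, 408 and 441 without the post-molt pair of C. formosanus, Hybrid F or Hybrid G, 438 without the inter-molt pair of Hybrid F, and 384 without the inter-molt pairs of both species. Against pre-molt they were 256, 231, 136 and 124 without the post-molt pair of C. formosanus, C. gestroi, Hybrid F or Hybrid G, 152 and 188 without the pre-molt pair of Hybrid F or Hybrid G, and 256 without the inter-molt pair of Hybrid F.

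Of the 847 genes that differed from inter-molt, 457 had the mean difference on opposite sides at the 2 stages, 235 had it on the same side and larger after the molt, and 155 smaller. By at least 2-fold each way, 27 genes lay above the body after the molt and below it between molts, and 13 the reverse. Of the 388 genes that differed from pre-molt, 175 had opposite sides, 180 the same side with a larger difference after the molt and 33 a smaller one. Only BGI_novel_G001445 and Cfor_07542, named after their values were seen, lay at least 2-fold above the body after the molt and at least 2-fold below it before, and 14 did the reverse. Cfor_07542 had 47.7 ± 8.42 CPM in heads and 23.7 ± 5.86 CPM in bodies after the molt, against 15.0 ± 6.02 and 32.7 ± 7.05 CPM in heads and bodies before it. Its shift was 2.20 ± 0.35 on the log2 scale (edgeR adjusted p = 0.00831).

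Cfor_09254, the gene of high head level above, had no call between head and body between molts (edgeR adjusted p = 0.415) and was called before and after the molt. Between molts it had 15.3 ± 27.0 CPM in heads and 6.39 ± 9.47 CPM in bodies, before the molt 2763 ± 1142 and 148 ± 64.2 CPM, and after the molt 2217 ± 398 and 9.61 ± 1.82 CPM. Between molts Hybrid G was far above the other crosses, with 55.8 CPM in its head and 20.6 CPM in its body, and the other inter-molt profiles reached at most 2.60 CPM. The head to body difference after the molt exceeded that between molts by 7.33 ± 0.58 and that before the molt by 3.65 ± 0.52 on the log2 scale (edgeR adjusted p = 0.000241 and 0.00427). Heads of the 2 stages around the molt overlapped, and the bodies did not, all post-molt bodies being lower.

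Cfor_09634 behaved in a like way at lower levels, with 5.74 ± 7.22, 561 ± 118 and 818 ± 161 CPM in heads and 4.87 ± 4.15, 260 ± 31.6 and 86.5 ± 11.4 CPM in bodies between molts, before and after the molt. Its shift against inter-molt was 3.36 ± 0.30 (edgeR adjusted p = 0.000241). BGI_novel_G001615 was also called against inter-molt (edgeR adjusted p = 0.000241), on few counts. After the molt its heads had 0, 5.45, 2.45 and 3.24 CPM and its bodies 0, 0.423, 0.247 and 0.117 CPM. Between molts all heads had at most 0.110 CPM, and of the bodies only that of Hybrid G exceeded 1 CPM, with 22.9 CPM. C. formosanus and Hybrid F had 0 in both tissues between molts. The fitted shift, 11.25, rested on the Hybrid G body set against tissues at or near 0 counts and was 8.36 without that inter-molt pair (edgeR adjusted p = 0.00969), so neither value gives the size of the difference.

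Cfor_06406 changed sides. After the molt its heads had 210, 170, 165 and 182 CPM in C. formosanus, C. gestroi, then Hybrid F and Hybrid G, above its bodies with 118, 91.2, 109 and 94.9 CPM. Between molts its heads lay at 31.2 to 56.5 CPM, below its bodies at 162 to 210 CPM in every cross. The shift was 2.98 ± 0.26 against inter-molt and 2.30 ± 0.26 against pre-molt (edgeR adjusted p = 0.000241 and 0.000995). Cfor_05596 did the reverse. Its heads were above its bodies between molts (159 ± 47.4 and 34.8 ± 10.1 CPM), and still before the molt (76.7 ± 34.8 and 27.6 ± 9.63 CPM). After the molt its heads had 19.9 ± 2.90 CPM, below its bodies with 52.5 ± 6.19 CPM. Its shift against inter-molt was -3.58 ± 0.30 (edgeR adjusted p = 0.000241).

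Cfor_05936 was lower in heads at all 3 stages, and the gap was wider after the molt than between molts. Its heads averaged 0.464 ± 0.173, 0.781 ± 0.568 and 0.466 ± 0.331 CPM at the 3 stages, and its bodies 6.98 ± 4.72, 206 ± 157 and 238 ± 128 CPM. The shift against inter-molt was -5.16 ± 0.40 (edgeR adjusted p = 0.000241). Cfor_09570 and Cfor_04977 shifted by less, -0.97 ± 0.08 and -1.45 ± 0.13, with the same adjusted p. Cfor_04977 had 248 ± 23.6 CPM in heads and 481 ± 108 CPM in bodies after the molt, against 326 ± 21.2 and 228 ± 27.0 CPM in heads and bodies between molts. Cfor_09570 stayed lower in heads at all 3 stages, with mean log2 differences of -0.75, -0.88 and -1.73.

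**Figure D5:**
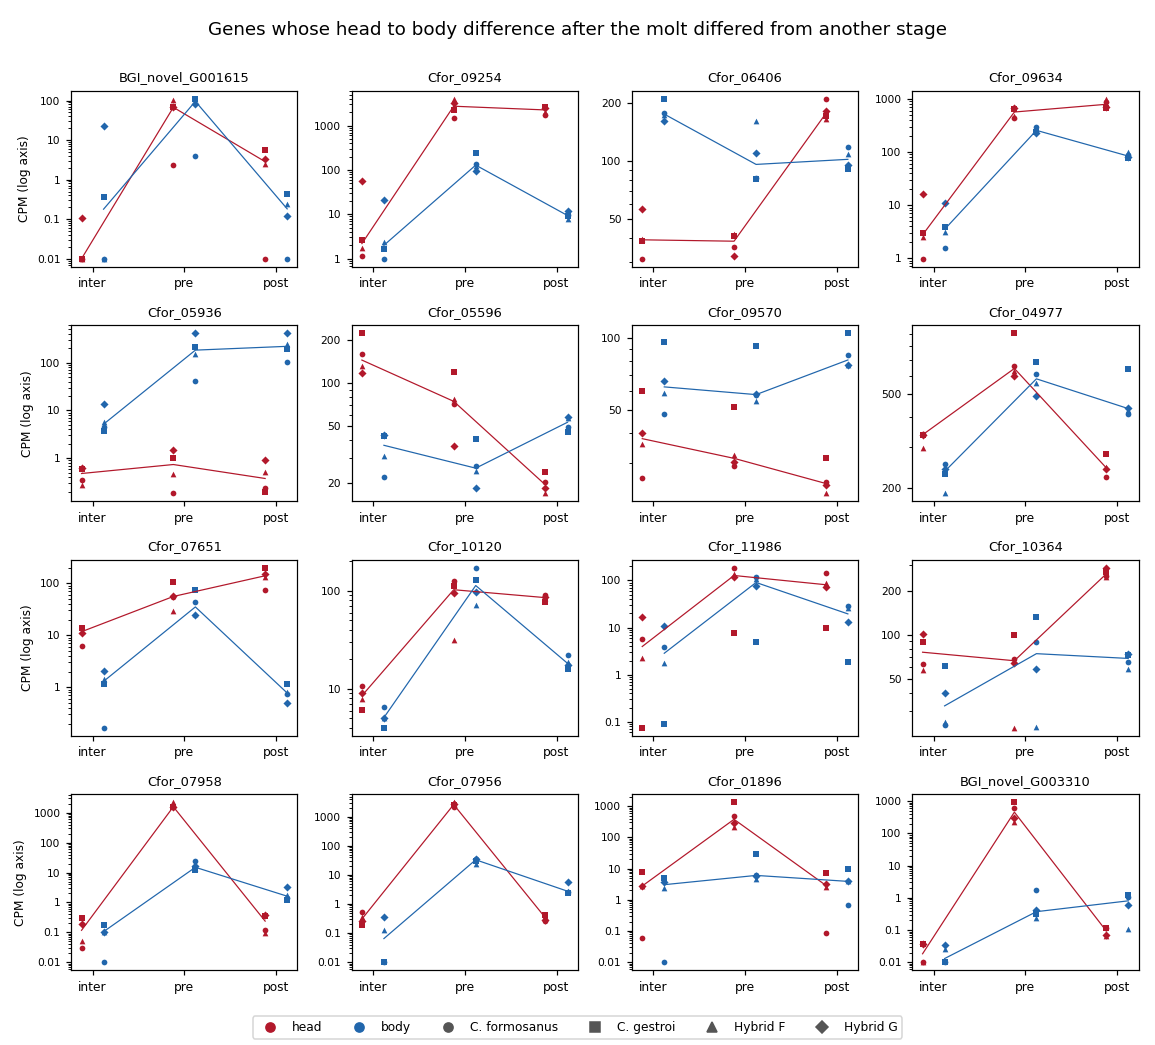
Levels in CPM (log axes, 0 drawn at 0.01) of the 16 genes with the smallest p for another head to body difference after the molt, against inter-molt in the upper 2 rows and against pre-molt in the lower 2 rows. Heads are red and bodies blue, marker shapes are the crosses, and lines join the medians of the 4 crosses. In Cfor_06406 and Cfor_05596 the red and blue lines cross, and Cfor_07958 and Cfor_07956 have high heads before the molt only.

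Against pre-molt, the 4 named shifts towards the body came from genes that were low in post-molt heads and abundant in pre-molt heads. After the molt Cfor_07958 had 0.118, 0.355, 0.0966 and 0.387 CPM in heads of C. formosanus, C. gestroi, then Hybrid F and Hybrid G, below its bodies with 1.39, 1.16, 1.84 and 3.36 CPM. Before the molt it had 1576, 1588, 2267 and 1575 CPM in heads, and 12.003 to 25.2 CPM in bodies. The difference thus changed sides, with a shift of -9.77 ± 0.47 (edgeR adjusted p = 4.21e-06). Cfor_07956, a near number, did the same, with 0.342 ± 0.0813 CPM in heads and 3.49 ± 1.64 CPM in bodies after the molt, and 2693 ± 394 CPM in heads and 31.6 ± 4.995 CPM in bodies before it (shift -9.67 ± 0.55, edgeR adjusted p = 1.01e-05).

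After the molt Cfor_01896 averaged 3.30 ± 2.99 CPM in heads and 4.46 ± 3.62 CPM in bodies, with overlap and no call between the tissues (edgeR adjusted p = 0.188). BGI_novel_G003310 had 11 counts in all heads and 92 in all bodies after the molt and did not pass the filter of the post-molt fit. Its pooled ratio of body to head was 8.24 (counting interval 4.40 to 17.1). Before the molt Cfor_01896 and BGI_novel_G003310 had 582 ± 522 and 521 ± 327 CPM in heads, against 11.3 ± 11.46 and 0.669 ± 0.690 CPM in bodies. The shifts of these 2 genes were -6.36 ± 0.38 and -12.38 ± 0.67 (edgeR adjusted p = 1.11e-05 and 1.16e-05).

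For 3 of the 4 named shifts towards the head against pre-molt, the mean levels of the 2 stages lay further apart, as a ratio, in bodies than in heads. Cfor_07651 had 139 ± 52.1 CPM in heads and 0.794 ± 0.262 CPM in bodies after the molt, and 62.2 ± 33.2 CPM in heads and 42.2 ± 23.3 CPM in bodies before it, a shift of 6.86 ± 0.40 (edgeR adjusted p = 1.01e-05). Its post-molt bodies all lay below its pre-molt bodies, while its heads overlapped between the stages. Cfor_10120 averaged 84.7 ± 5.88 CPM in heads and 18.6 ± 2.53 CPM in bodies after the molt, against 91.0 ± 41.5 and 118 ± 43.9 CPM in heads and bodies before it (shift 2.66 ± 0.20, edgeR adjusted p = 5.1e-05). Cfor_11986 moved alike (shift 1.66 ± 0.15, edgeR adjusted p = 0.000227), but at levels that differed between crosses, with a C. gestroi head of 9.99 CPM against 71.8 to 145 CPM in the other heads. Cfor_10364 was the exception. Its heads had 263 ± 18.5 CPM after the molt, all above the pre-molt heads with 63.9 ± 31.4 CPM, and its bodies had 67.5 ± 7.11 and 76.2 ± 46.6 CPM after and before the molt (shift 2.15 ± 0.19, edgeR adjusted p = 0.000228).

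Genes of large difference often had consecutive ID numbers. The sources used here do not say whether consecutive numbers are neighbours in the genome or near-identical copies, between which expected counts are uncertain. Among the genes at least 4-fold lower in heads with a tested gene at a number next to theirs, 282 of 748 (37.7%) had such a neighbour that was also at least 4-fold lower, and 9.54% of all 12040 such genes stood next to a gene of this kind. For genes at least 4-fold higher in heads it was 36 of 243 (14.8%), against 3.15%. There were 33 runs of 3 or more consecutive IDs at least 4-fold lower and 5 runs at least 4-fold higher, a search made after the values were seen.

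The longest run higher in heads had 4 IDs of high level, Cfor_07015 to Cfor_07018. They averaged 1029 ± 123, 3614 ± 997, 2303 ± 249 and 1195 ± 101 CPM in heads, against 78.4 ± 63.3, 350 ± 148, 184 ± 20.8 and 159 ± 40.8 CPM in bodies, with log2 fold changes of 4.02, 3.45, 3.63 and 2.93 (adjusted p between 0.000116 and 0.00132, edgeR). Runs of 6 IDs lower in heads went from BGI_novel_G001466 to BGI_novel_G001471 and from BGI_novel_G003407 to BGI_novel_G003412. In the second, the level fell along the numbers from BGI_novel_G003407 (140 ± 26.4 CPM in heads, 2209 ± 575 CPM in bodies) to BGI_novel_G003411 (1.44 ± 0.901 CPM in heads, 8.19 ± 3.23 CPM in bodies), while the log2 fold changes of the 6 genes stayed between -3.97 and -2.59. Cfor_06985 to Cfor_06987 was a shorter run higher in heads, in which Cfor_06987 had 164 ± 17.9 CPM in heads and 2.98 ± 0.769 CPM in bodies (log2 fold change 5.78, edgeR adjusted p = 0.000106).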

How the data were processed

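Total RNA was isolated with Trizol and silica membranes and made into mRNA libraries, per the labels' protocols. The tools named are Bowtie2, RSEM and DESeq2, per the submitters' processing notes (versions and genome build not given in the sources used here). Expected counts per gene, unscaled, were deposited by the authors with a gene length (28.5% of the post-molt values are not whole). Expected counts divide reads that match several genes. NA (8.18% of post-molt values) was read as 0. 0 columns were without a sample, and columns of a group did not differ in any gene.

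Expected counts were rounded, filtered with filterByExpr by tissue (by tissue and stage for the 24 profiles), TMM-scaled (factors of 0.929 to 0.996 in heads and 0.986 to 1.095 in bodies) and tested with edgeR 4.0.16 in R 4.3.3 (estimateDisp, robust glmQLFit, glmQLFTest, adjusted p under 0.05). Residual degrees of freedom were 3 for head against body, 9 for the interactions and 2 for hybrids. SE is the log2 fold change over the square root of F. Printed CPM are TMM-scaled over all 24 profiles, and per-cross log2 differences use a prior count of 2. Floors are 3 counts and intervals exact 95% binomial ones, for counting error only. The fits were also run on simulated counts with the same dispersion in all genes. That is a simpler setting than these data, and no result here rests on that run.

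Genes were named by rules. The first took the 12 largest log2 fold changes per direction (called, same sign in all crosses, mean log2 CPM of at least 3). Others took the 4 highest genes per tissue and the 4 smallest p per direction of each interaction. For the hybrid test it was the 4 smallest p of both directions together. The rest took the 3 called genes per direction with the largest smallest mean difference over the stages, and the 3 highest restricted genes per tissue. The comparison, lists and rules were chosen with earlier results of these data known. Both lists of known insect genes matched 0 IDs. Alternatives were RLE scaling, no filter, DESeq2 1.42.0, each pair left out, no pairing, all 24 profiles, no NA genes, thinning to the smallest total, and no inter-molt pairs of the species. Scaling by totals was chosen after seeing the data.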

Additional observations from a re-analysis of the deposited data

Results flagged for a closer look

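A value of 1 cross lay far from the other 3 in 7 of 63 groups of 4 values looked at. Chance alone flags about 1 in 20 such groups. All 7 were log2 differences of head over body after the molt. In C. formosanus they were smaller in size than in the other crosses for BGI_novel_G002420 (6.59), Cfor_10175 (6.34) and BGI_novel_G001358 (-6.12), and larger for Cfor_09069 (-12.89) and Cfor_01896 (-2.23). The C. formosanus heads of BGI_novel_G001358 and Cfor_09069 had 0 CPM. Their values depend on the prior count of 2 and on the body level, and are not measured ratios. The Hybrid F head of BGI_novel_G001358 also had 0 CPM. The bodies of BGI_novel_G002420 had 0.151, 0.0353, 0 and 0.0292 CPM in C. formosanus, C. gestroi, then Hybrid F and Hybrid G. The values of the other crosses for that gene thus depend on the prior count as well. The C. formosanus head of Cfor_01896 had 0.0889 CPM, near the counting limit. In C. gestroi the difference was smaller for Cfor_01998 (-2.10), and in Hybrid F for Cfor_11986 (1.81).

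The head to body difference after the molt was another one than between molts in 847 genes and than before the molt in 388, by the interaction test. Against inter-molt the leading shifts on the log2 scale were 11.25 in BGI_novel_G001615 (8.36 without the inter-molt pair of Hybrid G, both fitted against tissues at or near 0 counts), 7.33 in Cfor_09254, 3.36 in Cfor_09634 and 2.98 in Cfor_06406 towards the head. They were -5.16 in Cfor_05936, -3.58 in Cfor_05596, -1.45 in Cfor_04977 and -0.97 in Cfor_09570 towards the body. Against pre-molt they were 6.86 in Cfor_07651, 2.66 in Cfor_10120, 2.15 in Cfor_10364 and 1.66 in Cfor_11986 towards the head, and -12.38 in BGI_novel_G003310, -9.77 in Cfor_07958, -9.67 in Cfor_07956 and -6.36 in Cfor_01896 towards the body.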

How the results depend on the processing

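Counts of genes past the threshold stayed within 1.5 times for head against body with RLE scaling (4821), totals alone (4832), no filter (4852), DESeq2 (5601), all 24 profiles (4945), no NA genes (4763) and thinning (4764). They left that range with no pairing by cross (2786). Leaving out each pair gave 2890 to 4406 calls for head against body, 408 to 1120 against inter-molt, 124 to 479 against pre-molt and 0 for hybrids against parents. The hybrid test had 2 residual degrees of freedom before any pair was left out, so its repeated 0 says little. DESeq2 called 1782 and 992 genes against inter-molt and pre-molt, and 118 for hybrids against parents. Totals alone gave 2734 and 1545 genes against inter-molt and pre-molt. The fit without the inter-molt pairs of the species gave 384 against inter-molt. Fits built from fewer profiles also have fewer residual degrees of freedom, and the cause of these changes was not tested. All 281 alternative values of the 24 leading genes kept direction and call, as did the 16 stage genes in the interactions. The choice of these genes by largest difference or smallest p in the same data favours this. Genes named by other rules did not all keep their call, such as BGI_novel_G001907 with 8 of 12 alternatives. Pairing was by cross. By replicate number no paired analysis was possible because the numbered samples of a group have identical values. Depth limits the fold changes of genes near 3 counts. With few counts in the low tissue, leaving out a pair moved fitted log2 fold changes. In BGI_novel_G001368, for example, it was -11.70 with all pairs and -13.76 to -10.36 with 1 pair left out.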
